A study of Homo sapiens with 4 samples.

Results

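The genes described here are the integrated stress response (ISR) genes whose transcription is linked to the factor ATF4, joined by GDF15, in RKO cells with and without knockdown of the chromatin remodeller CHD7. They were chosen by name, as 31 symbols. The rule itself used no measured value, but the choice was made with earlier results of these data known. Of these, 30 were listed among the 15357 genes of the expression tables, 28 passed a filter on low counts, and all 11955 genes that passed were fitted together. The expression of CBS, an enzyme of the transsulfuration pathway, was not analysed here. ALDH1L2, with at most 2 counts in a sample, and STC2, with at most 1, were listed but not tested. The question put to the genes was whether GDF15 rose together with the outputs of ATF4 or apart from them and beside the targets of p53.

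RKO cells are an established human line from a colorectal carcinoma. The vector group was 2 samples of RKO cells stably infected with a control lentivirus, and the shCHD7_2 group was 2 samples infected with lentivirus carrying CHD7 shRNA2, a short hairpin RNA against the CHD7 transcript. RNA was sequenced after capture with oligo-dT beads, so polyadenylated transcripts were measured, and the labels give no time after infection. Only 1 hairpin was sequenced, so an effect of CHD7 loss and an effect of this hairpin on other transcripts cannot be told apart. Nothing in the labels says that the replicates were separate cultures, and p-values therefore measure the spread between these samples only. The CHD7 transcript stood at 85.4 and 91.0 CPM (counts relative to the library total, scaled by the trimmed mean of M values, TMM) in the vector samples and at 55.5 and 50.1 in the shCHD7_2 samples, a log2 fold change of -0.74 ± 0.09 (SE, n = 2 per group). Library totals lay between 15734666 and 16068642 counts, and the correlation of log2 CPM was 0.994 within each group and 0.986 to 0.988 between groups. Of 8 colon epithelial markers, KRT8, KRT18, EPCAM and CDX2 were present at levels that could be tested, while CDH1 and KRT20 had at most 1 count in a sample. KRT19 and VIL1 were not analysed here. Of the other markers, 3 of 8 for fibroblasts, 2 of 4 endothelial and 3 of 6 immune ones were listed. The sums that follow cover only listed markers. Fibroblast markers summed to 2 to 4 counts in vector samples and 7 to 9 in shCHD7_2 samples, endothelial markers to 0 to 1 and 2 to 3 counts, and immune markers other than CD68 to 2 to 5 and 3 to 7 counts. CD68, a lysosomal protein used as a macrophage marker, was itself abundant, with 908 and 850 CPM in the vector samples and 997 and 1024 CPM in the shCHD7_2 samples (log2 fold change 0.20, adjusted p 0.0624 in edgeR).

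In the integrated stress response, kinases that sense amino acid shortage, haem shortage, misfolded protein or double-stranded RNA phosphorylate the translation factor eIF2. Protein synthesis then falls in general, while the ATF4 transcript, whose short upstream reading frames otherwise hold ribosomes back, is translated more. ATF4 pairs with C/EBP proteins, binds the C/EBP-ATF response element and induces genes for amino acid synthesis, amino acid uptake, tRNA charging and, under longer stress, cell death. GDF15 is a secreted cytokine of the TGF-beta superfamily that cells release under many stresses, and its transcription can be raised by ATF4 and DDIT3 as well as by p53. Because ATF4 is controlled largely at translation, its own transcript is not a measure of its protein, and the transcripts of its targets are the closer reading in RNA data.

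Letters that match the element bound by ATF4 were found in the promoters of 3 of these genes, and those 3 stretches are shown. Binding of ATF4 was not measured. Promoters of 300 bases, from 250 before to 50 after the start of the gene, were available from RefSeq on GRCh38.p14 for 24 of the 31 genes. The C/EBP-ATF response element was searched as TGATGNAA on both strands and was found in 3 of these 24, in ASNS at position -68 from the gene's start, in CHAC1 at -209 and in PPP1R15B at -227. That is 12.5%, against 1.69% of 9457 promoters of genes tested and 3.67% of all 27305 promoters. The 24 include CBS and STC2, which had no match and were not among the genes tested. The stretches below run 5′ to 3′ on each gene's own strand, with the element in capitals. They lie at chr7:97872458-97872487 on the minus strand, at chr15:40953251-40953280 on the plus strand and at chr1:204412026-204412055 on the minus strand.
ASNS: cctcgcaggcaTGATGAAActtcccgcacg
CHAC1: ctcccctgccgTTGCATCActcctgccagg
PPP1R15B: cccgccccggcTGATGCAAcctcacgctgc
The element of CHAC1 reads in the opposite direction to its gene, and so appears as its reverse complement. Positions are counted from the start that RefSeq gives, and GENCODE 29 lists transcripts of ASNS and CHAC1 that start further upstream and include these stretches.

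In the 300-base promoter of GDF15, at chr19:18385908-18386207 on the plus strand, no match was found to TGATGNAA, to the cAMP response element (TGACGTCA, both strands) or to the p53 response element decamer. A match to the p53 decamer was present in 5.21% of the promoters of genes tested, in 1 of the 24 promoters of these genes (EIF2AK4, the amino acid sensing kinase) and in 4 of 30 promoters of p53 targets. The absence of these letters describes this window only, which surrounds the start that RefSeq gives, at base 18386158. In GENCODE 29 that base starts 1 of 5 GDF15 transcripts, and 3 others start further upstream. The cAMP response element was found in PPP1R15A, at position -58, and in 3.28% of the promoters of genes tested.

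GDF15 rose and ATF4 did not rise with it. GDF15 (chromosome 19, bases 18374731 to 18389176 on the plus strand in GENCODE 29, GRCh38) had 42.6 and 33.9 CPM in the vector samples and 105 and 117 CPM in the shCHD7_2 samples. Both shCHD7_2 samples lay far above both vector samples. The log2 fold change was 1.54 ± 0.10 (SE, n = 2 per group), a 2.91-fold rise with an adjusted p of 3.96e-10 by edgeR's quasi-likelihood test, and GDF15 ranked 9 by p among all genes tested. ATF4 (chromosome 22, bases 39519695 to 39522685 on the plus strand) had 703 and 671 CPM in the vector samples and 552 and 585 CPM in the shCHD7_2 samples. These groups did not overlap either, but in the opposite direction, with a log2 fold change of -0.27 ± 0.07 (SE) and an adjusted p of 0.0129 in edgeR. In bulk RNA a change in the share of expressing cells and a change in RNA per cell cannot be told apart.

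A gene was called when its adjusted p was under 0.05 and its fold change at least 1.5. By this rule 2 of the 28 tested genes were called, GDF15 higher and NUPR1 lower, against 2.88% of all genes tested (1.51% higher and 1.37% lower). Without the fold threshold 8 of the 28 passed, 2 of them higher (GDF15 and CEBPB) and 6 lower (NUPR1, ASNS, PHGDH, PPP1R15A, ATF4 and DDIT4), against 11.5% of all genes tested (4.94% higher and 6.54% lower). The fitted change was below 0 in 21 of the 28 (17 of 28 when libraries were scaled by their totals, which moved the median of all genes from 0.00 to 0.04) and the median log2 fold change was -0.07. Over all genes tested 49.9% were below 0. The samples of the groups did not overlap for 17 of the 28 genes, against 53.7% of all genes tested, which is near the background. Apart from GDF15 and NUPR1, none of the other 26 was called by edgeR or by DESeq2, 11 had an unadjusted p under 0.05 in edgeR (25.4% of all genes tested did), and their changes ran from -0.46 to 0.50.

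**Figure D1:**
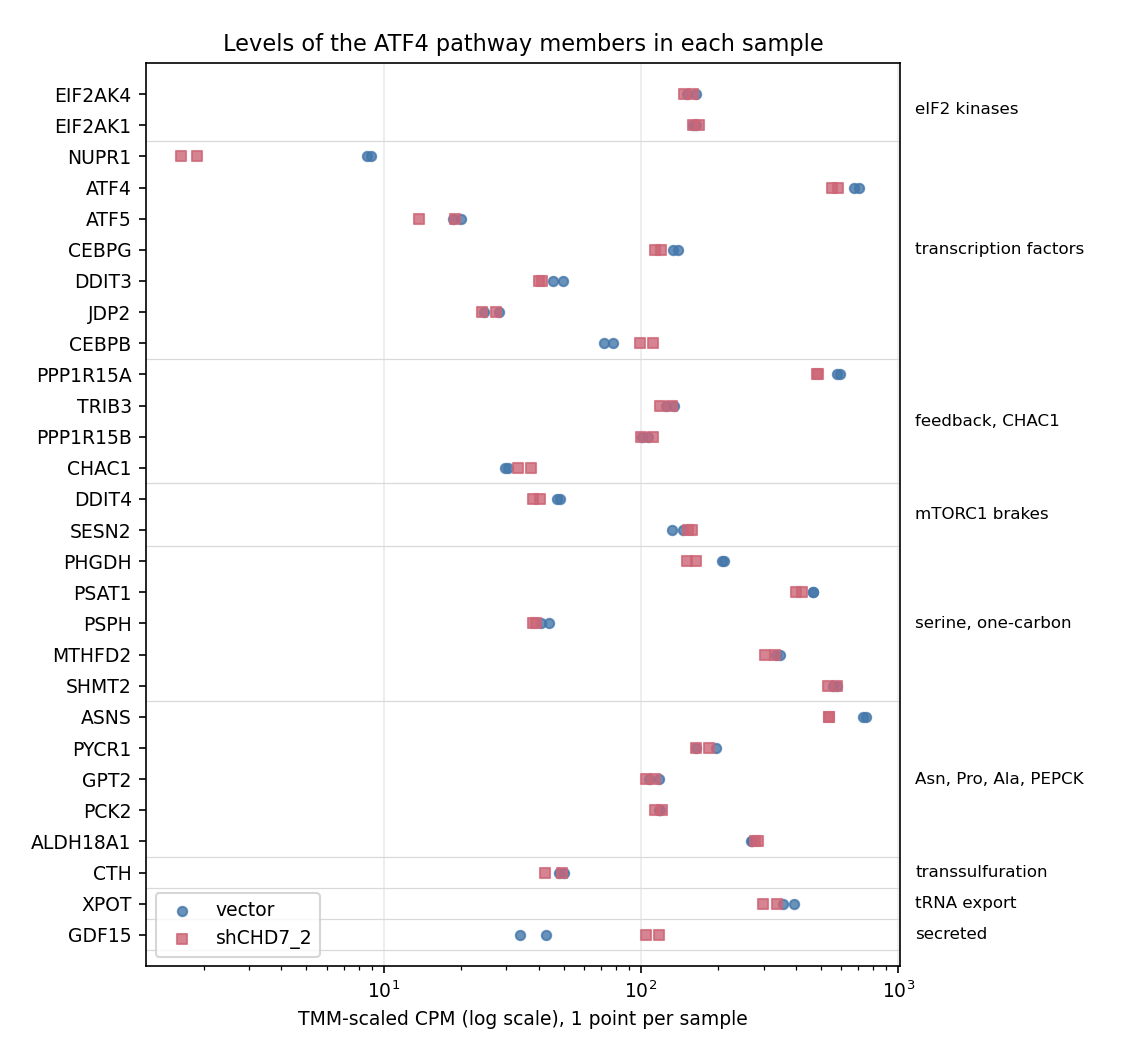
Level of each of the 28 tested genes in each of the 4 samples, in TMM-scaled CPM on a log axis, with circles for vector and squares for shCHD7_2, ordered by role. GDF15 at the bottom has both squares at 105 and 117 CPM to the right of its circles, NUPR1 has both squares at 1.62 and 1.88 CPM to the left, and most other genes have circles and squares close together.

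The 2 kinases of the group that can start the response did not differ detectably. EIF2AK1, the haem-regulated kinase HRI, had a log2 fold change of 0.02 (95% interval -0.14 to 0.18), and EIF2AK4, the kinase GCN2 that senses uncharged tRNA, one of -0.04 (-0.20 to 0.13). Of the eIF2 kinases in a further list, EIF2AK2 stood at -0.24 (-0.41 to -0.07, adjusted p 0.0668 in edgeR) and EIF2AK3 at -0.05 (-0.27 to 0.17). The activity of these kinases is set by phosphorylation and was not measured.

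Among the 7 transcription factors, 6 had values below 0 and CEBPB alone had a value above 0. NUPR1 (chromosome 16, bases 28532708 to 28539174 on the minus strand), a small stress-induced nuclear protein, had 8.89 and 8.61 CPM in the vector samples and 1.62 and 1.88 CPM in the shCHD7_2 samples. In counts these were 138 and 136 reads against 26 and 30, so that the groups stood well apart, although NUPR1 was the least abundant tested gene of the group in the shCHD7_2 samples. Its log2 fold change was -2.32 ± 0.21 (SE, n = 2 per group), a 4.98-fold fall with an adjusted p of 5.07e-08 in edgeR. DDIT3, the factor CHOP that links prolonged stress to cell death, had 49.7 and 45.4 CPM in the vector samples and 40.0 and 41.1 in the shCHD7_2 samples. Its groups did not overlap, and its log2 fold change of -0.23 ± 0.09 (SE) had an adjusted p of 0.114 in edgeR. CEBPG, which pairs with ATF4 on its element, stood at -0.24, and ATF5, a relative of ATF4 that is also controlled at translation, at -0.25, with adjusted p of 0.0551 and 0.266 in edgeR. JDP2, a repressor that binds AP-1 and cAMP response elements, stood at -0.04. CEBPB, which responds to inflammatory and growth signals as well as to ATF4, rose by 0.50 ± 0.09 (SE, adjusted p 0.000474 in edgeR), a 1.41-fold change that lies under the fold threshold.

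NUPR1 has transcripts of very different length. GENCODE 29 lists a long form of 5491 bases, of which 4978 are 3′ UTR, and a short form of 550 bases with a 3′ UTR of 149 bases. The deposited counts and FPKM together imply a length of 699 to 712 bases for the reads assigned to NUPR1, in vector and shCHD7_2 samples alike. The same calculation gave 1235 to 1244 bases for GDF15, which has a form of 1200 bases. An earlier look at these data had found certain words of 7 bases more often in 3′ UTRs of genes that were lower in shCHD7_2. They are GAAGCTA, then AGCTATT, which overlaps it in part, and, shifted by 1 base from that, GCTATTA. All 3 are present in the long form of NUPR1 and none is present in the short form. The longest 3′ UTR of each gene was searched, so NUPR1 was counted by its long form. At least 1 of these words was held by 8 of the 28 tested genes, or 28.6%, against 22.4% of all genes tested that have a 3′ UTR. Among those called lower the share was 68.4%. The words were picked from genes lower in these same data, so that last share follows from the choice and is not independent evidence. The length of the 3′ UTR was not taken into account. Besides NUPR1, the tested genes of the group with a word were EIF2AK1, EIF2AK4, JDP2, MTHFD2, GPT2, CTH and XPOT, and none of these was called. None of the 3 words was found in the longest 3′ UTR of ATF4, ASNS, PHGDH, DDIT4 or PPP1R15A. These 3′ UTRs have 86, 144, 356, 851 and 952 bases, against 4978 for NUPR1. GDF15 and CEBPB, which rose, hold none of the words either. Whether the words have a part in the fall of NUPR1 was not tested.

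The feedback genes had small values of both signs. PPP1R15A, the subunit GADD34 that brings a phosphatase to eIF2 and so ends the response, had 577 and 595 CPM in the vector samples and 485 and 487 CPM in the shCHD7_2 samples. The groups did not overlap, and the log2 fold change was -0.27 ± 0.07 (SE, adjusted p 0.0124 in edgeR). TRIB3, a pseudokinase induced by ATF4 and DDIT3 that restrains ATF4, had 135 and 125 CPM against 118 and 132 CPM. Here the groups overlapped, and the log2 fold change was -0.05 (95% interval -0.22 to 0.12). CHAC1, which degrades glutathione and is among the most inducible ATF4 targets, had 29.6 and 30.5 CPM in the vector samples and 33.2 and 37.5 CPM in the shCHD7_2 samples. Its samples did not overlap between groups, and its log2 fold change of 0.23 ± 0.10 (SE) had an adjusted p of 0.133 in edgeR. PPP1R15B, the constitutive partner of the same phosphatase, stood at 0.03. Thus the 3 genes whose matches to the C/EBP-ATF response element are printed above had log2 fold changes of -0.46 (ASNS), 0.23 (CHAC1) and 0.03 (PPP1R15B).

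DDIT4 and SESN2, which restrain the growth kinase complex mTORC1 and are induced by p53 as well as by ATF4, differed from each other in sign. DDIT4 had 47.3 and 48.5 CPM in the vector samples and 38.0 and 40.5 CPM in the shCHD7_2 samples. SESN2 had 146 and 132 CPM in the vector samples and 153 and 158 CPM in the shCHD7_2 samples. The log2 fold change was -0.29 ± 0.09 (SE, adjusted p 0.0413) for DDIT4 and 0.16 ± 0.08 (SE, adjusted p 0.198) for SESN2 in edgeR, and DESeq2 gave DDIT4 an adjusted p of 0.165. Neither reached the fold threshold, although in both the groups did not overlap.

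Genes of amino acid synthesis, the most direct output of ATF4, stood level or lower. ASNS (chromosome 7, bases 97852118 to 97872542 on the minus strand), which makes asparagine, had 728 and 748 CPM in the vector samples and 537 and 537 CPM in the shCHD7_2 samples. The replicates of each group lay close together and the groups apart, with a log2 fold change of -0.46 ± 0.07 (SE, adjusted p 8.41e-05 in edgeR), a 1.37-fold fall under the fold threshold. In the serine pathway, PHGDH, its entry enzyme, fell by 0.41 on the log2 scale (adjusted p 0.000930 in edgeR), while PSAT1 and PSPH, which complete serine, stood at -0.18 and -0.14 and did not pass. The mitochondrial folate enzymes MTHFD2 and SHMT2 stood at -0.10 and -0.03. All 5 tested genes of this pathway had values below 0 and 1 of them passed the adjusted p. PYCR1 and ALDH18A1, which make proline, stood at -0.05 and 0.06, and GPT2, which makes alanine, and PCK2, the mitochondrial PEP carboxykinase, stood at -0.05 and -0.01. CTH, which makes cysteine from cystathionine, stood at -0.10, and XPOT, which exports tRNA from the nucleus, at -0.24 (adjusted p 0.0546 in edgeR).

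**Figure D2:**
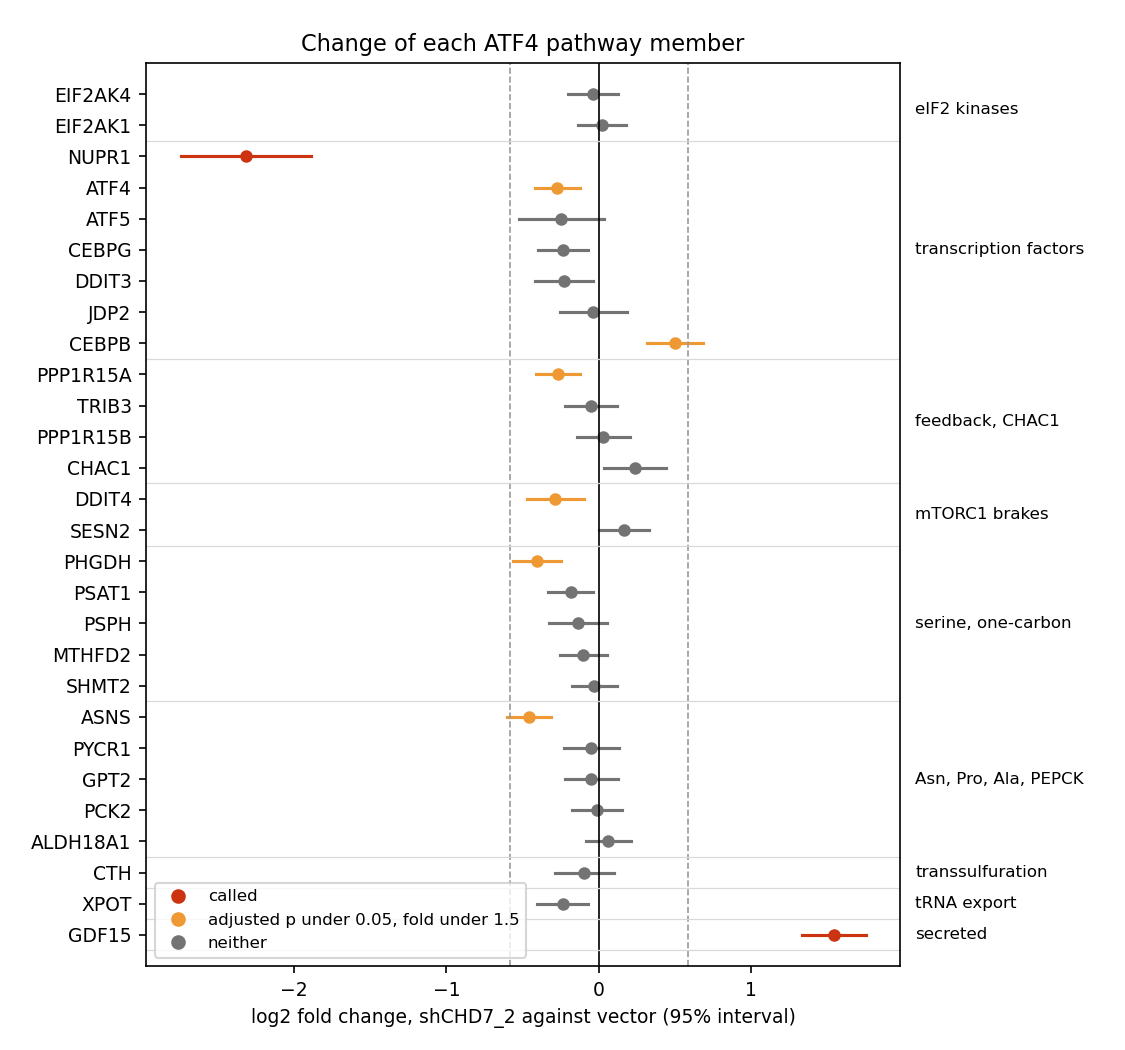
Log2 fold change of each tested gene, shCHD7_2 against vector, with its 95% interval from edgeR (n = 2 per group) and dashed lines at a fold change of 1.5. GDF15 at 1.54 and NUPR1 at -2.32 are the only intervals beyond the dashed lines, and 6 further genes, CEBPB above 0 and 5 below, have adjusted p under 0.05 within them or across them.

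Levels of different genes can be compared in FPKM, which are per transcript length. In the vector samples the mean FPKM of GDF15 was 30.5, and 17 of the other 27 tested genes were above it. In the shCHD7_2 samples it was 91.0, with 7 genes above it. ATF4 had the highest mean FPKM of the group in both conditions, 531 in vector and 451 in shCHD7_2. The lowest was ATF5 at 9.76 in vector and NUPR1 at 2.51 in shCHD7_2.

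Since passing a threshold in one gene and missing it in another shows no difference between them, the change of GDF15 was compared with that of each other gene. The difference of log2 fold changes, GDF15 minus the other gene, had a 95% interval above 0 for 27 of 27 genes and ran from 1.04 for CEBPB to 3.86 for NUPR1. The intervals treat the genes' errors as independent. Against ATF4 the difference was 1.81 (95% interval 1.56 to 2.07), against DDIT3 1.77 (1.49 to 2.05) and against CHAC1 1.31 (1.01 to 1.60). Per sample, the log2 ratio of GDF15 to ATF4 was -4.04 and -4.31 in the vector samples and -2.39 and -2.32 in the shCHD7_2 samples. For every one of the 27 genes the ratio was higher in both shCHD7_2 samples than in both vector samples. The exact two-sided permutation test over samples gave p = 0.333 for each ratio, which is the smallest value that 2 samples against 2 allow, so this test could not pass a threshold of 0.05.

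**Figure D3:**
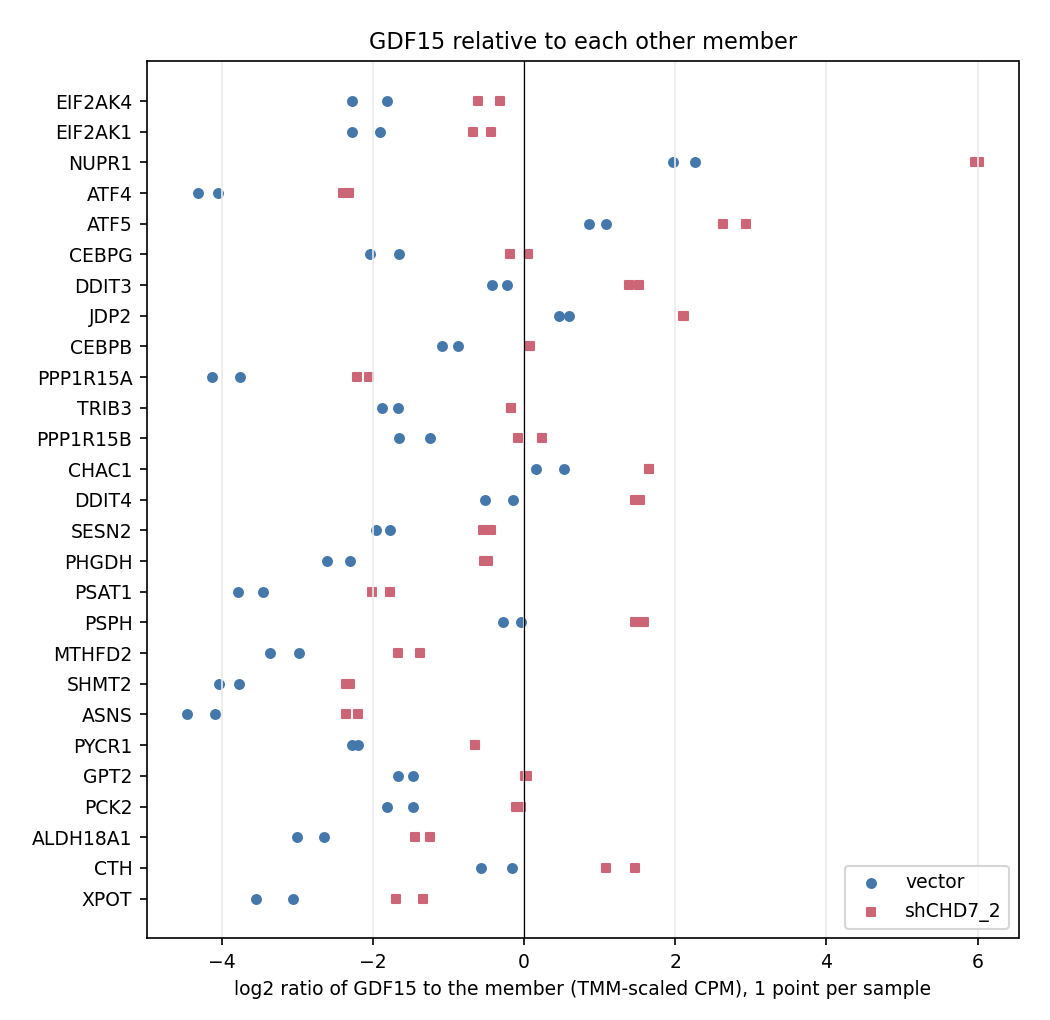
Log2 ratio of GDF15 to each of the other 27 tested genes in each sample, from TMM-scaled CPM, with circles for vector and squares for shCHD7_2. In every line both squares lie to the right of both circles, from -4.04 and -4.31 to -2.39 and -2.32 for ATF4.

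The wider ATF4 pathway was examined in 4 further lists with 44 tested genes, of which 38 had values below 0. Of the 44, 2 were called and both of those were lower. Over all genes tested 49.9% had values below 0 and 2.88% were called, with 1.37% lower. EIF2B2, just under the fold threshold here, was called higher in 5 of 14 alternatives, so that 3 genes of these lists were then called. The counts of genes with an unadjusted p under 0.05 given next stand beside 25.4% of all genes tested. None of the 8 amino acid transporters was called by edgeR or DESeq2, 2 had an unadjusted p under 0.05 in edgeR, and the median log2 fold change was -0.13. SLC3A2, the heavy chain of amino acid exchangers, stood at -0.20 and SLC38A2, a glutamine carrier, at -0.18. All 12 aminoacyl-tRNA synthetases had values below 0, with a median of -0.18. None of these was called by edgeR or DESeq2, 7 had an unadjusted p under 0.05, and WARS1 (-0.29) and LARS1 (-0.27), which charge tryptophan and leucine tRNA, passed the adjusted p in edgeR. In the machinery of eIF2, 10 of 14 genes had values below 0, 7 had an unadjusted p under 0.05, and none was called by either tool. EIF2B2, a subunit of the exchange factor that reloads eIF2, rose by 0.57 and DELE1, the messenger of mitochondrial stress, fell by 0.28 on the log2 scale, both by adjusted p alone.

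Among 16 other genes linked to ATF4, 10 could be tested, 9 had values below 0, and ARHGEF2 and ERO1A were called lower. ARHGEF2, a guanine nucleotide exchange factor bound to microtubules, had 296 and 292 CPM in the vector samples and 161 and 161 CPM in the shCHD7_2 samples, a log2 fold change of -0.87 (adjusted p 2.35e-08 in edgeR). ERO1A, an oxidase of the endoplasmic reticulum, had 332 and 339 CPM against 216 and 196 CPM, a change of -0.71 (adjusted p 9.01e-07 in edgeR). Both genes hold at least 1 of the 3 words named above in their longest 3′ UTR, ERO1A all 3. DELE1 holds 1 of the words, and WARS1 and LARS1 hold none. RRM2B, a p53 target that was called higher (0.75), holds 2 of the words. The words were picked from genes lower in these same data, so such matches are not independent evidence. ATF3, a stress-induced factor downstream of both ATF4 and p53, stood at -0.17 and did not pass. FGF21, INHBE and ADM2, which ATF4 induces in many cells, were listed with too few counts to test.

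The other arms of the unfolded protein response, which raise chaperones of the endoplasmic reticulum, were read from a list of their own. Of 19 genes of the XBP1 and ATF6 branch, 13 had values above 0 and 6 below, with a median of 0.07. Over all genes tested 49.9% had values below 0. DNAJB9, a chaperone partner and XBP1 target, was called lower (-0.60, adjusted p 0.000308 in edgeR). Its longest 3′ UTR holds 2 of the 3 words named above. The call held in 7 of 14 alternatives. It was lost with library totals, with no filter in edgeR and with limma at every setting. The endoplasmic reticulum protein genes HERPUD1 (0.36), SDF2L1 (0.47), PDIA4 (0.38) and MANF (0.26) rose by adjusted p alone. Among all genes tested, 2.88% were called and 4.94% were higher by adjusted p alone. HSPA5, the chaperone BiP, stood at 0.05 and XBP1 at -0.09, and neither passed.

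The targets of p53 were counted in the same way. Of 37 tested targets, 36 had values above 0, with a median log2 fold change of 0.39. Of the 37, 8 were called (21.6%), all of them higher, and 22 passed the adjusted p alone, also all higher. Over all genes tested 49.9% had values below 0, 1.51% were called higher and 4.94% were higher by adjusted p alone. DESeq2 called 5 of the 37, and 221 of all genes tested. CDKN1A, the cell cycle inhibitor p21, had 128 and 112 CPM in the vector samples and 243 and 252 CPM in the shCHD7_2 samples, a log2 fold change of 1.05 ± 0.08 (SE, adjusted p 4.66e-09 in edgeR). The other called targets were TP53INP1 (1.71), RRM2B (0.75), CD82 (1.49), BBC3 (0.63), PLK2 (1.38), SPATA18 (1.87) and TRIM22 (1.38). Of these, PLK2, SPATA18 and TRIM22 had under 3 CPM in every sample. BBC3, PLK2 and TRIM22 were not called by DESeq2, which gave them adjusted p of 0.0599, 0.296 and 0.162. MDM2, the p53 ubiquitin ligase and target, stood at 0.13 and did not pass. The list was drawn up with earlier results of these data known, so its direction is not independent evidence.

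The change of GDF15 was within the range of these targets. It exceeded 35 of the 37, and the 95% interval of the difference was above 0 for 32. Against CDKN1A the difference was 0.49 (0.23 to 0.76), against RRM2B 0.79 and against BBC3 0.91. Against TP53INP1 it was -0.17 (-0.49 to 0.16) and against CD82 0.05 (-0.35 to 0.45), intervals that include 0. The intervals for PLK2, SPATA18 and TRIM22 also included 0 and were wider. An interval that includes 0 does not show that the genes changed alike.

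Of other factors known to act on GDF15, SP1 stood at -0.02 and KLF4 at -0.50 (adjusted p 0.0668 in edgeR). EGR1, an immediate-early factor, fell by 0.30 on the log2 scale (adjusted p 0.0160 in edgeR). Genes that both ATF4 and p53 can induce had values of both signs, with TNFRSF10B, a death receptor, at 0.23 (adjusted p 0.0417 in edgeR), SESN2 at 0.16, ATF3 at -0.17, PPP1R15A at -0.27 and DDIT4 at -0.29.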

How the data were processed

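RNA-seq of RKO cells was available for 2 vector and 2 shCHD7_2 samples, grouped by their titles. The authors deposited expected counts (estimated counts from RSEM, not normalized) and, in a second deposited table, FPKM values normalized for gene length and depth. The submitters' processing notes name Bowtie2, RSEM, DESeq2 and hg38, without versions. RSEM divides reads between similar genes, so copies and overlapping genes are uncertain, and strand handling is not given in the sources used here.

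Counts were rounded to whole numbers, which summed to 15734666, 16068642, 15749603 and 15771489. In R 4.3.3, edgeR 4.0.16 (filterByExpr, TMM, quasi-likelihood test without covariates) tested 11955 genes with Benjamini-Hochberg adjustment, and calls needed an adjusted p under 0.05 and a fold of at least 1.5, the study's thresholds. The biological coefficient of variation was 0.0579. SE and 95% intervals derive from the quasi-likelihood F. limma 3.58.1 on log2 FPKM and DESeq2 1.42.0 were alternatives. The fits were tested on simulated data. Replicates differed by more than sampling noise (chi-square per gene 3.94 and 6.05).

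Replicate numbers come from the sample titles. Deviations of same-numbered samples had a correlation of -0.198, so the numbers were not taken to pair the samples.

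Genes and lists were chosen with earlier results of these data known. Every gene of the group is named. The value of 1 gene from the further lists is not reported here. Each sample is given for GDF15, ATF4, DDIT3, ASNS, TRIB3, CHAC1, SESN2, DDIT4, PPP1R15A and every called gene of the group. From other lists the called genes are named or, with none, the 2 of smallest p. Other genes named from the lists were chosen after their values were seen. Promoters and positions came from RefSeq (GRCh38.p14) and GENCODE 29, matched by symbol. The 3′ UTR is the longest of each gene in GENCODE 29 (Python 3.11.15).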

Additional observations from a re-analysis of the deposited data

How the results depend on the processing

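NUPR1 was called in 14 of 14 alternatives and GDF15 in 13 of 14, where GDF15 had a log2 fold change of 1.38 to 1.71 on leaving out 1 sample. In those fits the lone sample of an arm is assumed to vary like the others. With limma on log2(FPKM + 1) and no filter GDF15 stood at 1.56 (adjusted p 0.0725), 12 genes in all were called, with 1 of the 31 genes, 0 of the 4 further ATF4 lists, 0 of the XBP1 and ATF6 branch and 0 p53 targets. With no filter in edgeR 141 genes were called, 4 p53 targets and 0 of the XBP1 and ATF6 branch. With no fold threshold the counts were 1373 of all genes, 8 of the 31, 7 of the further ATF4 lists, 5 of the XBP1 and ATF6 branch and 22 p53 targets. DESeq2 called 221 genes and 5 p53 targets. Limma with a mean FPKM of at least 1 called 169 genes, with 0 of the XBP1 and ATF6 branch, and with a pseudocount of 0.1 it called 5 p53 targets and 0 of that branch. Library totals left 0 of that branch. EIF2B2 was called higher (0.59 to 0.65) with library totals, with limma and a mean FPKM of at least 1 at either pseudocount, and without vector replicate 1 or shCHD7_2 replicate 1. On leaving out 1 sample, the calls ran from 308 to 380 for all genes, 6 to 8 for p53 targets and 0 to 2 for the XBP1 and ATF6 branch, with 2 on leaving out vector replicate 1.

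With the replicate block 329 genes were called, of which 324 were called without it, and GDF15 stood at 1.54. A crossed replicate block, added after seeing the data, called 423. The difference between GDF15 and ATF4 ran from 1.69 to 1.95 on leaving out 1 sample. The adjusted p of ATF4 and of PPP1R15A was under 0.05 in 7 of 14 alternatives, of DDIT4 in 4, of PHGDH in 11, of CEBPB in 12 and of ASNS in 13, with 1 direction throughout. Of 364 differences between GDF15 and another gene under the alternatives, 364 kept their side of 0. The causes of these shifts were not tested. With 2 samples per group and a coefficient of variation of 0.0579, changes under the fold threshold rest on few residual degrees of freedom.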

Other observations

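The tested neighbours of GDF15 within 250000 bases on chromosome 19 numbered 15. IFI30, a lysosomal thiol reductase, was called higher (log2 fold change 0.69, adjusted p 5.58e-05 in edgeR). PGPEP1, a peptidase whose gene lies next to GDF15, stood at 0.44 (adjusted p 0.00182) and ELL, an elongation factor, at -0.44 (adjusted p 0.00650), both under the fold threshold. Of the 9 tested neighbours of NUPR1 within the same distance on chromosome 16, none was called by edgeR and their log2 fold changes ran from -0.23 to 0.76, the last for EIF3CL, which has a near-identical copy, EIF3C, at -0.09. The 31 genes of the group lay on 15 chromosomes, 4 of them on chromosome 19 (ATF5, CEBPG, GDF15 and PPP1R15A).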
